A study of Mus musculus with 12 samples.

Results

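Very long genes were taken as the autosomal genes whose length in the deposited gene body table was at least 400 kb. There were 290 of them among the 27095 genes of the table and among the 23912 genes placed on an autosome. They were 285 protein-coding genes and 5 long non-coding RNA genes, spread over 19 chromosomes, with a median length of 550 kb. Though they were 1.21% of autosomal genes, their lengths summed to 194 Mb, or 18.98% of the summed gene length of the table. The longest were Cntnap2 with 2241328 bases, Lrp1b with 2056826, Macrod2 with 1994621, Csmd1 with 1642841 and Nrxn3 with 1612060, and 41 genes reached 1 Mb. Membership was set by length alone, but the length rule was chosen with earlier results of these data known.

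The signal was H3K14ac, acetylation of histone H3 at lysine 14, mapped by ChIP-seq (sequencing of immunoprecipitated chromatin). The cells were mouse neural stem and progenitor cells, taken at embryonic day 14.5 from 2 forebrain regions, the cortices and the ganglionic eminences. The 12 libraries were WT H3K14ac ChIP from differentiating cells (3 libraries, neurosphere cells replated on laminin with a medium for cortical neurons), WT H3K14ac ChIP from proliferating neurospheres (3 libraries), and, once at each stage, H3K14ac ChIP from Hbo1 null cells, a non-specific IgG ChIP and WT input, which is chromatin without immunoprecipitation. Hbo1, also called Kat7, encodes a histone acetyltransferase, and the series text gives the null cells and IgG as negative controls. The labels name 4 WT foetuses but tie no library to a culture or animal, so the p-values below reflect differences among libraries of a group that may be technical only. In bulk chromatin, a change in the share of cells with the mark and a change within each cell cannot be told apart.

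Many very long mouse genes encode the adhesion molecules, receptors and scaffolds with which neurons form synapses. They have large introns, and RNA polymerase needs a long time to cross them. H3K14ac is a mark of active chromatin, and much of it lies near the start sites of transcribed genes. For this reason each gene was read in 2 pieces, the first 1 kb from the transcription start site, called the TSS window, and the rest of the gene body, and the TSS windows were 0.149% of the genes' length.

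Adhesion and synapse lists held 70 of the 290 genes. A further 116 fell in lists of ion channels, guidance, transcription, RNA binding, signalling, cytoskeleton or other functions, and 104 were in no list. Iqschfp and Schip1 overlap by 561681 bases on chromosome 3, so their counts are not independent.

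The promoter sequences below show what lies at the starts of genes with the strongest and the weakest TSS window signal over input. A RefSeq promoter (GRCm38.p6, 250 bases before to 50 after a start) agreed within 100 bases with the start implied by the table's gene length for 133 of the 290 genes. Among those with a tested window and a named gene, the 3 highest and 3 lowest fold changes over input were chosen after their values were seen. Capitals mark every CG dinucleotide (CpG), the site of DNA methylation. The high ones were Lpp at chr16:24393100-24393399 (plus strand), Fbxl17 at chr17:63500531-63500830 (minus strand) and Nckap5 at chr1:126830583-126830882 (minus strand), with 19, 17 and 12 CpGs.

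Lpp: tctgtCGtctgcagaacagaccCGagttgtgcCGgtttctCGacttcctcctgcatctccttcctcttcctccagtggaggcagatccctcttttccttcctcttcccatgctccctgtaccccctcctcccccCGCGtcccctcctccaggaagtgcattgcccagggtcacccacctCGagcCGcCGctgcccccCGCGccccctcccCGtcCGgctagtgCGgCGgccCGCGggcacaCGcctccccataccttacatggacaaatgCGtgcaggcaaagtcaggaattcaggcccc

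Fbxl17: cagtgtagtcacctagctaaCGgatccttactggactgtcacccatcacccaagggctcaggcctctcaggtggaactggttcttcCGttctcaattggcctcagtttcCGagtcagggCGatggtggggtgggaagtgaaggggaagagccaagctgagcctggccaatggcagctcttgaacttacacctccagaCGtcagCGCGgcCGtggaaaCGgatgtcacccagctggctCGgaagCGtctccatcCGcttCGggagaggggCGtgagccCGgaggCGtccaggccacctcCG

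Nckap5: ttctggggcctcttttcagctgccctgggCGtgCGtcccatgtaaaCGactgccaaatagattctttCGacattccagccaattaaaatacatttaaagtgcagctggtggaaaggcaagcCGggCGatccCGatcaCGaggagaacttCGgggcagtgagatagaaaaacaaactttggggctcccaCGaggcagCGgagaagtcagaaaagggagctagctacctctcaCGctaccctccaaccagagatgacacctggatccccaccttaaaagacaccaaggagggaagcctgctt

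The low ones were Tenm3 at chr8:48674641-48674940 (minus strand), Schip1 at chr3:68064552-68064851 (plus strand) and Gpr158 at chr2:21367317-21367616 (plus strand), with 10, 5 and 15 CpGs.

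Tenm3: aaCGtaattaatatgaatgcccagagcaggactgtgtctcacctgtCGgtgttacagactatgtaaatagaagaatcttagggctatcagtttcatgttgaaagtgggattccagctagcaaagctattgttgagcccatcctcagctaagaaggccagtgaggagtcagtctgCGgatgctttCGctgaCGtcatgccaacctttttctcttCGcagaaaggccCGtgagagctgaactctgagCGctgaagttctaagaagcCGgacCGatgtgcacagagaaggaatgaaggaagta

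Schip1: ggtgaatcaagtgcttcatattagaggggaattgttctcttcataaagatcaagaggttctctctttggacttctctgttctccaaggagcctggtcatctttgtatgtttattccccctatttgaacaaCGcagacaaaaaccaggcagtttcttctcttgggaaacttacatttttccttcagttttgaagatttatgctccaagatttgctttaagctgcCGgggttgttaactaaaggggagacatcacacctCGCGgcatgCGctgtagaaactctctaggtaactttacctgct

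Gpr158: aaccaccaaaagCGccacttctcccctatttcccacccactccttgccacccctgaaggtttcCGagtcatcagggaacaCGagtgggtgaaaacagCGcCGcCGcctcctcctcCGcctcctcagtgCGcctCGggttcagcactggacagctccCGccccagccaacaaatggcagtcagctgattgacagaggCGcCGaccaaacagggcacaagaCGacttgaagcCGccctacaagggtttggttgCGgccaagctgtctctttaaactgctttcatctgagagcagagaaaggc

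Only the last 50 bases of each lie in the counted window. Gpr158 has a promoter nearly as rich in CpGs as that of Lpp and was the one window called below input, so CpG content alone did not order these 6 genes. GC content was 64.7% for Lpp, 61.0% for Fbxl17, 52.3% for Nckap5, 47.3% for Tenm3, 42.3% for Schip1 and 58.3% for Gpr158.

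Among genes with a matched promoter, those of long genes were richer in CpGs than those of other autosomal genes, which were not split by length. The median was 20 CpGs and 63.3% GC in the 133 long genes, against 13 CpGs and 56.3% GC in 13689 other autosomal genes. A CpG-rich promoter, here at least 50% GC and an observed-to-expected CpG ratio of at least 0.6, was found in 80 of 133 long genes (60.2%) and in 6317 other genes (46.1%). The letters TATAAA, searched on both strands, were in 13 long-gene promoters (9.77%) and 1921 others (14.0%), which describes these letters in a window of 300 bases and not a bound factor.

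Gene body totals were 12549913 to 17074249 counts in WT differentiating libraries and 3992697 to 7611239 in WT proliferating libraries. They were 320601 and 64071 in the Hbo1 null, 2771713 and 2526252 in the IgG and 12689734 and 11871306 in the input libraries of the differentiating and proliferating stage. At this depth the median long gene had 2213 to 9706 counts outside its TSS window in WT libraries, and 33 in the proliferating null library. A TSS window had a median of 14 to 20 counts in differentiating and 6 to 12 in proliferating WT libraries, 2 and 3 in the IgG libraries of the differentiating and proliferating stage, and 0 in both null libraries. One WT library stood apart in how evenly the long genes were covered. Outside the TSS window, the middle 80% of long genes spanned 0.926 to 1.07, 0.961 to 1.05 and 0.975 to 1.08 counts per kb for every 1000000 gene body counts (CPM per kb) in WT differentiating libraries. The same span was 0.746 to 1.17 in WT proliferating replicate 1 and 0.947 to 1.07 and 0.935 to 1.07 in replicates 2 and 3. The inputs spanned 0.666 to 1.08 and 0.598 to 1.11 in the differentiating and proliferating stage, wider than replicates 2 and 3 and more like replicate 1.

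Stem and progenitor markers (10 of 10 in the table, none at 0) summed to 1.42 to 2.03 times input in differentiating and 2.95 to 3.93 times in proliferating TSS windows. The proliferating IgG library was at 1.95 on the same list. Microglia markers summed to 0.757 to 1.09 times input in differentiating and 0.553 to 0.969 times in proliferating WT libraries. Neuron markers (5 of 5) were at 0.931 to 1.26 in differentiating and 1.94 to 2.10 in proliferating WT libraries. Other lists lay, in the same order, at 1.29 to 2.00 and 0.963 to 1.65 (astrocyte), 1.76 to 2.07 and 1.78 to 1.85 (oligodendrocyte lineage), 0.917 to 1.35 and 0.972 to 1.14 (endothelial), 0.776 to 1.05 and 0.881 to 1.18 (mesenchymal), and 0.919 to 1.03 and 0.517 to 1.22 (blood). The part of any of these in the results below was not tested.

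Outside the TSS window the long genes held more of the WT ChIP counts than of the input counts. Their share of gene body counts, TSS window included, was 19.3%, 19.6% and 20.1% in WT differentiating libraries and 18.6%, 19.6% and 19.4% in WT proliferating libraries. It was 18.7% and 17.5% in the null, 19.6% and 17.6% in the IgG, and 16.98% and 16.38% in the input libraries of the differentiating and proliferating stage. The WT libraries thus lay above the input of their stage, and the differentiating IgG library lay within the range of the WT differentiating libraries.

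As a share of gene body counts and relative to the input of the stage, the summed signal outside the TSS window was 1.16 ± 0.02 in differentiating and 1.17 ± 0.03 in proliferating WT libraries (SD, n = 3 each). The stages overlapped. IgG was at 1.16 in the differentiating and 1.08 in the proliferating stage, and the null libraries were at 1.10 and 1.07. Set against IgG instead, the WT sums were 1.00 ± 0.02 in differentiating libraries, where 1 is no difference, and 1.09 ± 0.03 in proliferating libraries (SD, n = 3 each). Each control was 1 library per stage, so the controls have no replicate error, and intervals on the null sums cover counting error only.

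In the TSS window the stages stood apart over input but nearly met over IgG. The summed window signal was 1.30, 1.05 and 1.14 times input in WT differentiating libraries, against 1.51, 1.60 and 1.60 times in WT proliferating libraries. All 3 differentiating libraries were below all 3 proliferating ones. Set against IgG, the window sums were 1.49, 1.197 and 1.30 in WT differentiating and 1.49, 1.58 and 1.58 in WT proliferating libraries. The highest differentiating library, at 1.492, then lay just below the lowest proliferating one, at 1.494. Over all autosomal genes the window sums over IgG were 1.19 to 1.41 in WT differentiating and 1.47 to 1.51 in WT proliferating libraries. The IgG sums of the long genes were 0.874 times input in the differentiating and 1.01 in the proliferating stage. The null sums rested on 86 counts in the differentiating stage, 0.872 times input (95% exact Poisson interval 0.697 to 1.08), and on 12 counts in the proliferating stage, 0.558 times input (0.288 to 0.974).

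The density in the TSS window divided by that in the rest of the same genes was 1.22 ± 0.15 in differentiating and 1.84 ± 0.01 in proliferating WT libraries (SD, n = 3 each). In the null libraries it was 0.959 and 0.718, in IgG 0.918 and 1.29, and in input 1.21 and 1.37, each for the differentiating and then the proliferating stage. The differentiating WT libraries lay around their input and the proliferating ones above theirs. Divided by the ratio of IgG, the values were 1.52, 1.199 and 1.27 in WT differentiating and 1.42, 1.42 and 1.44 in WT proliferating libraries, so both stages lay above IgG and their ranges overlapped. Over all autosomal genes the undivided ratio was 1.24 ± 0.11 in differentiating and 1.81 ± 0.04 in proliferating WT libraries (SD, n = 3 each). The stage difference in this ratio was thus not particular to long genes. With 3 libraries against 3, an exact permutation test could not go below 0.10, so these sums were not tested.

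**Figure D1:**
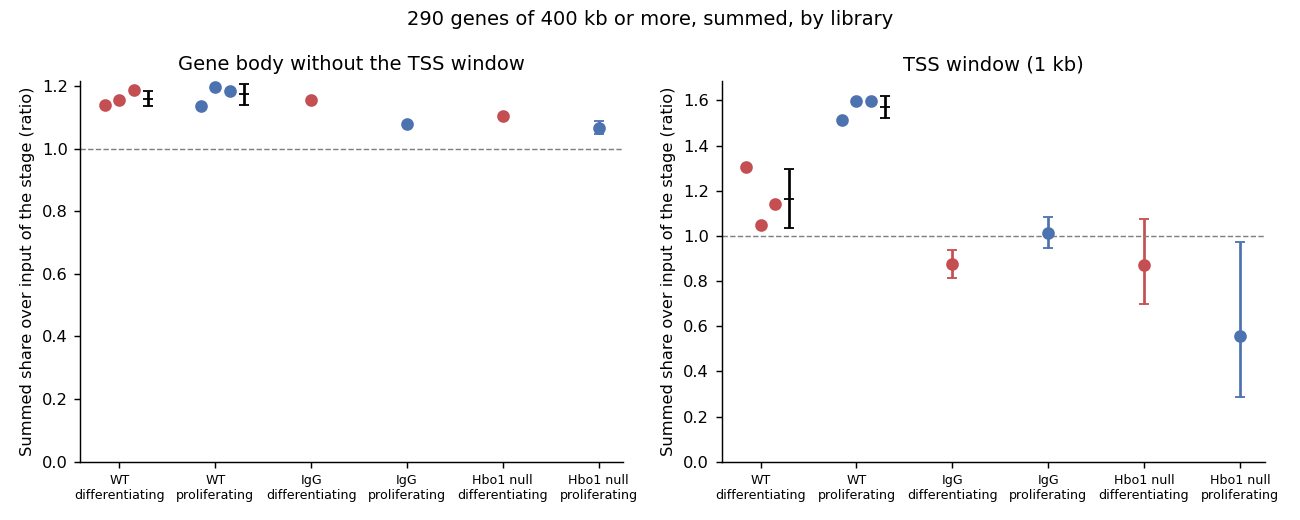
Summed signal of the 290 long genes relative to the input of the stage (y axis, ratio), for the gene body without the TSS window (left) and the TSS window (right). Points are libraries, black bars the mean ± SD of 3, and bars on single libraries 95% exact Poisson intervals; in the TSS window the 3 differentiating libraries (1.05 to 1.30) lie below the 3 proliferating ones (1.51 to 1.60), and IgG lies at 0.874 and 1.01 there and at 1.16 and 1.08 in the gene body.

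Signal outside the TSS window, relative to input, increased with gene length, also among the long genes. For the 176 genes of 400 to 600 kb the sum was 1.10 to 1.13 times input in differentiating and 1.11 to 1.13 in proliferating WT libraries. For the 73 genes of 600 to 1000 kb it was 1.14 to 1.19 in differentiating and 1.13 to 1.21 in proliferating libraries. For the 41 genes of at least 1000 kb it was 1.21 to 1.29 in differentiating and 1.18 to 1.32 in proliferating libraries. IgG over input went the same way, with 1.09, 1.17 and 1.26 in the differentiating and 1.04, 1.09 and 1.14 in the proliferating stage. The null libraries had 1.05, 1.09 and 1.21 in the differentiating and 1.04, 1.05 and 1.15 in the proliferating stage. All of these ratios share the same input library of the stage. From genes of 200 to 400 kb to the long genes, input fell from 0.979 to 0.875 CPM per kb in the differentiating stage. In the proliferating stage it fell from 0.967 to 0.844. The WT means fell less, from 1.04 to 1.01 in differentiating and from 1.03 to 0.99 in proliferating libraries. IgG fell from 1.03 to 1.01 and from 0.99 to 0.91. Between these classes the higher ratio thus went with a lower input density, not with a higher ChIP density.

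**Figure D2:**
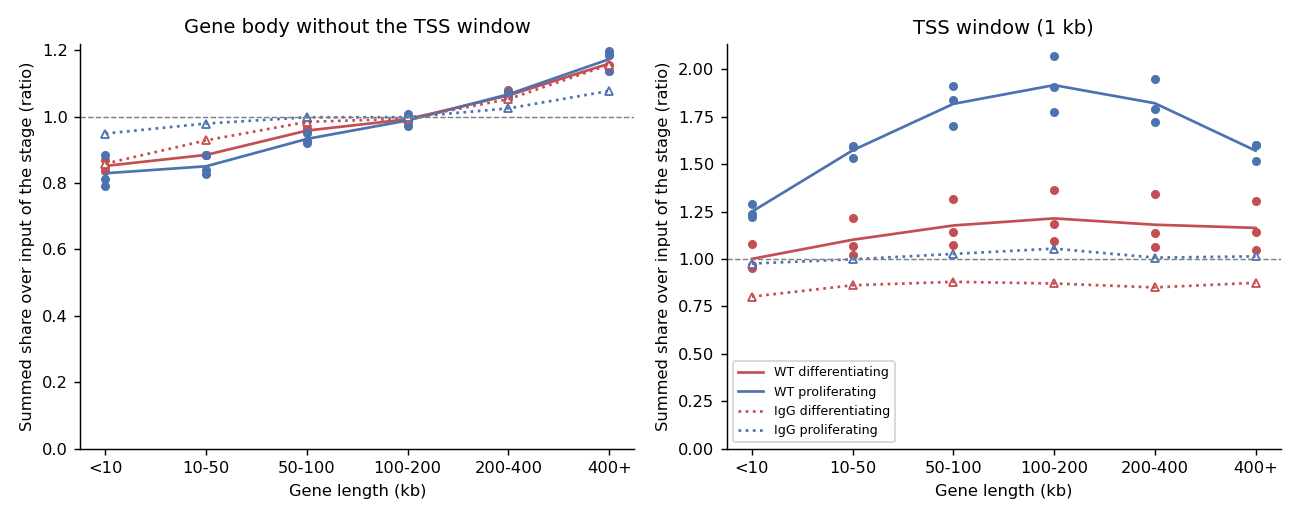
Summed signal relative to the input of the stage (y axis, ratio) by gene length class (x axis, kb), for the gene body without TSS window (left) and the TSS window (right). Filled points are WT libraries, open triangles IgG, and lines group means; long genes are highest in the left panel, where IgG rises too, while the right panel peaks at 100 to 200 kb.

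The TSS window did not follow length in that way. Long genes had 1.05 to 1.30 times input in differentiating WT libraries, against 1.09 to 1.36 in the class of 100 to 200 kb. In proliferating WT libraries long genes had 1.51 to 1.60, against 1.77 to 2.07 in that class. The share of genes called above input, by the test described next, was 13.0% in long genes and 23.3% in that class, and the difference between classes was not tested.

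Each gene was compared between WT ChIP and input with edgeR's quasi-likelihood test over all genes averaging 10 or more counts, with Benjamini-Hochberg adjusted p under 0.05 as the call. Outside the TSS window 163 of 290 long genes were higher than input and 6 lower, in a table where 8.51% of all genes were called higher and 29.4% lower. The median log2 fold change was 0.18 in long genes, against −0.19 over all genes tested. With TMM scaling, which centres the bulk of genes, 223 were higher and 0 lower, with a median of 0.33 in long genes and −0.04 over all genes. Without the proliferating input library 57 were higher and 0 lower, and without the differentiating one 120 and 0. Without WT proliferating replicate 1 the counts were 173 and 41.

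The 5 largest increases over input were in Brinp3, Csmd3, Spock3, Klhl1 and Mgat4c. Brinp3, a protein of developing neurons, had 0.84, 0.94 and 1.06 CPM per kb in WT differentiating libraries and 0.57, 0.94 and 0.90 in WT proliferating libraries. Its input was at 0.51 and 0.46 and its IgG at 1.15 and 0.86 in the differentiating and proliferating stage. In both inputs Brinp3 was the lowest of all 290 long genes. Its WT values lay below the median long gene of the library, except in differentiating replicate 3, where that median was 1.04. All 6 WT libraries were above input, proliferating replicate 1 by least, and IgG was as high as WT. The log2 fold change over input was 0.85 (SE 0.15, edgeR adjusted p = 0.00212), and over IgG it was −0.19 (SE 0.15, edgeR adjusted p = 0.523). Leaving out the proliferating input library gave 0.89 with an edgeR adjusted p of 0.0623.

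Csmd3, a large membrane protein with complement-like domains, was at 0.90, 0.99 and 1.07 in WT differentiating and 0.67, 0.95 and 0.92 in WT proliferating libraries (CPM per kb). Its input was at 0.54 and 0.49 and its IgG at 1.10 and 0.84. The log2 fold change was 0.83 over input (edgeR adjusted p = 0.000689) and −0.08 over IgG (edgeR adjusted p = 0.730). Spock3, an extracellular proteoglycan, was at 0.78 over input and 0.07 over IgG on the log2 scale. Klhl1, an actin-binding protein of neurons, was at 0.76 and 0.12, and Mgat4c, an enzyme of N-glycan branching, at 0.76 and 0.01. None of the 5 was called over IgG. The comparisons with input and with IgG share their WT libraries.

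The same held for the 5 longest genes. Cntnap2, a neurexin-like adhesion protein of axons, had 0.98, 1.02 and 1.08 CPM per kb in WT differentiating and 0.83, 1.01 and 0.98 in WT proliferating libraries. Its IgG was at 1.01 and 0.81 and its input at 0.72 and 0.65 in the differentiating and proliferating stage. The log2 fold change was 0.51 over input (edgeR adjusted p = 0.000613) and 0.11 over IgG (edgeR adjusted p = 0.423). Lrp1b, a member of the LDL receptor family, was at 0.63 over input and −0.05 over IgG. Macrod2, an ADP-ribose hydrolase, was at 0.36 and 0.06, Csmd1 at 0.20 and 0.11, and Nrxn3, a presynaptic neurexin, at 0.30 and 0.08. All 5 were called over input and none over IgG.

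The 3 lower genes named by the rule were Tmem132d, Csmd2 and Frmd4a. Tmem132d, a membrane protein of neural cells, had 0.97, 0.95 and 0.93 CPM per kb in WT differentiating and 0.90, 0.77 and 0.77 in WT proliferating libraries, against 1.11 and 1.00 in the inputs of the differentiating and proliferating stage. All 6 lay below their input, and the log2 fold change was −0.26 (SE 0.06, edgeR adjusted p = 0.00671). With TMM it was −0.11 (adjusted p = 0.131), and without the differentiating or the proliferating input library the edgeR adjusted p was 0.0522 or 0.155. Csmd2 was at −0.25 and Frmd4a, a scaffold of epithelial polarity, at −0.13, and neither call held without either input library or with TMM, where Frmd4a turned to 0.02.

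By function, all 9 long genes of the neurexin, neuroligin, contactin and Cntnap families were higher than input outside the TSS window, with log2 fold changes of 0.30 to 0.53. All 9 are longer than 600 kb, where the summed IgG was also 1.09 to 1.26 times input. Ion channels and their subunits were higher in 11 of 16, glutamate and GABA receptors in 7 of 11, cadherins and catenins in 7 of 11, and IgLON and other immunoglobulin adhesion genes in 7 of 11. Teneurins, latrophilins and receptor tyrosine phosphatases were higher in 4 of 11, with a median of 0.06. Kinases, phosphodiesterases and GTPase regulators were higher in 9 of 24 and lower in 2, with a median of 0.03. The lists' medians over input ran from 0.03 to 0.46 on the log2 scale, and all 290 genes had 0.18. Of all long genes 56.2% were higher, and apart from the first list the named lists lay on both sides of that share. No difference between lists was tested.

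Over IgG the picture outside the TSS window was different in number. Only 3 of 290 long genes were higher and 0 lower, in a table where 0.509% of all genes were called higher and 1.28% lower. An unadjusted edgeR p under 0.05 was found in 53 of 290 long genes and in 4324 of 21433 genes tested. DESeq2 called 10 long genes higher and 0 lower, against 237 and 248 over all genes. The edgeR median was 0.06 in long genes, against −0.06 over all genes tested. Fold changes over IgG were positive in 238 of 290 long genes (82.1%), 71.2% of genes of 200 to 400 kb and 41.5% of all genes tested. Calls were fewer than over input in the whole table, and the IgG libraries held fewer counts than the inputs. The numbers called over the 2 controls are therefore not on equal terms. Without the proliferating IgG library 1 was higher and the long-gene median was 0.01, without the differentiating one it was 0.11, and with TMM 0.12. None of the 14 functional lists had a called gene, the neurexin and contactin list included (0 of 9, median 0.08).

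The 3 genes were Skint6, Skint5 and Cpne4. Skint6 and Skint5, neighbours in a multi-copy immunoglobulin family known from skin epithelium, had few IgG counts. Skint6 had 0.88, 1.03 and 1.07 CPM per kb in WT differentiating and 0.59, 0.91 and 0.76 in WT proliferating libraries. Its IgG was at 0.32 and 0.22 and its input at 0.67 and 0.52, so IgG lay below input as well as below WT. The log2 fold change over IgG was 1.70 (SE 0.15, edgeR adjusted p = 8.86e-05), and over input it was 0.56. Skint5 was at 0.84 (edgeR adjusted p = 0.0108), and lost its call without the differentiating IgG library (edgeR adjusted p = 0.0938) or the proliferating one (0.296). How reads from near-identical copies were counted is not given in the sources used here, so both values are uncertain. Cpne4, a calcium-dependent phospholipid-binding protein, was at 0.26 (edgeR adjusted p = 0.0443), and leaving out any 1 library other than WT proliferating replicates 1 and 2 ended its call.

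**Figure D3:**
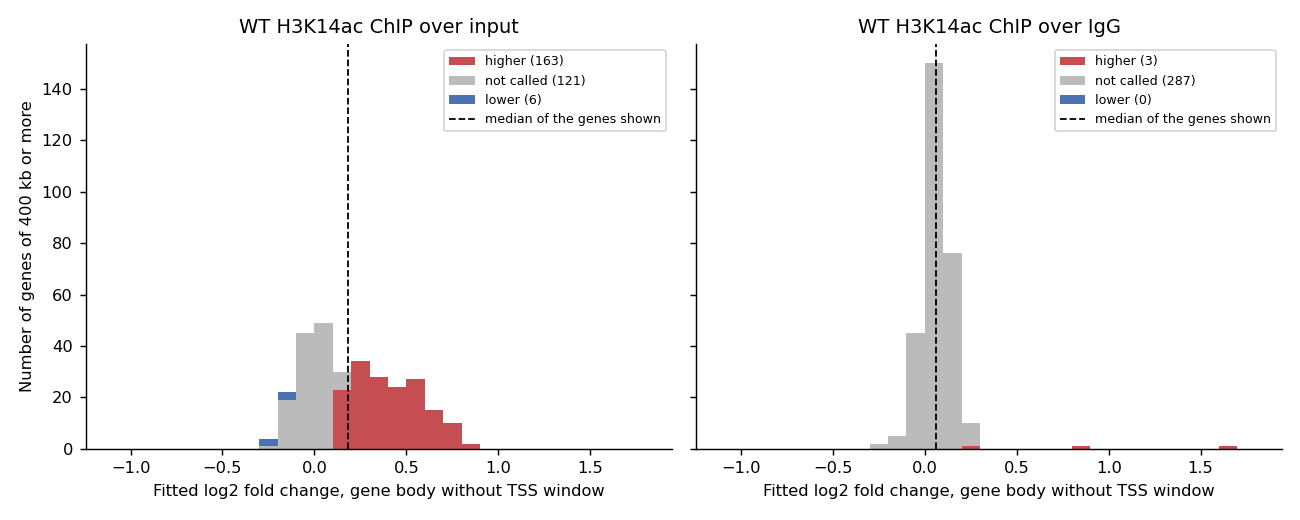
Number of long genes (y axis) by fitted log2 fold change of the gene body without the TSS window (x axis), for WT ChIP over input (left) and over IgG (right). Red bars are genes called higher, blue bars called lower and grey bars not called; over input the median is 0.18 with 163 genes higher, over IgG 0.06 with 3.

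In the TSS window, 253 of the 290 long genes had enough counts to test against input, and a further limit is that no called window had a mean of 30 counts. Of these, 33 were higher and 1 lower, in a table where 11.6% of all genes were called higher and 0.881% lower. The median log2 fold change was 0.40 in long genes and 0.25 over all genes. With TMM the counts were 17 higher and 3 lower, with a median of 0.13 in long genes and −0.02 over all genes, and DESeq2 called 5 higher. Without the proliferating input library 0 were called and the long-gene median was 0.22. Without the differentiating one 61 were higher and 2 lower, with a median of 0.62. Without WT proliferating replicate 3, 18 were higher.

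The 5 windows with the smallest p were those of Lpp, Zfpm2, Csmd2, Fbxl17 and Nckap5. Lpp, a focal adhesion protein, had 33, 22 and 29 counts in WT differentiating and 18, 29 and 51 in WT proliferating libraries, against 11 and 8 in input and 3 and 1 in IgG (differentiating, then proliferating). In CPM per kb these were 2.63, 1.72 and 1.70 in differentiating and 3.96, 7.26 and 6.70 in proliferating WT libraries, against 0.87 and 0.67 in input. All 6 WT libraries were above input and the proliferating ones were the higher. The log2 fold change was 2.17 over input (SE 0.45, edgeR adjusted p = 0.000394) and 2.30 over IgG (SE 0.65, edgeR adjusted p = 0.0220). Its promoter is the first sequence above.

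Zfpm2, a cofactor of GATA transcription factors, had 1.67, 1.72 and 1.23 CPM per kb in WT differentiating and 4.18, 4.01 and 3.55 in WT proliferating windows. Its input was at 0.55 and 0.76 and its IgG at 1.44 and 1.98, and the log2 fold change was 1.95 over input and 0.60 over IgG (edgeR adjusted p = 0.485). Csmd2 had 1.51, 1.02 and 1.29 in differentiating and 3.08, 2.75 and 2.63 in proliferating WT windows, against 0.55 and 0.50 in input. Its window was higher than input by 1.85 on the log2 scale, while the rest of its gene was lower by the same test. Fbxl17, an F-box protein of ubiquitin ligases, was at 1.88 and Nckap5 at 1.68. All 5 calls were lost without the proliferating input library, with edgeR adjusted p between 0.225 and 0.439.

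By function, the windows above input included 6 of 23 tested kinases, phosphodiesterases and GTPase regulators, 4 of 16 synaptic scaffold and release genes, and 4 of 13 transcription and chromatin regulators. IgLON and other immunoglobulin adhesion genes had 3 of 10 and glutamate and GABA receptors 2 of 8. Cadherins had 0 of 10, ion channels 0 of 13, axon guidance genes 0 of 7, and the neurexin and contactin list 0 of 6. Over all tested windows of long genes the share was 13.0%, at which lists of this size can hold no called gene, and no difference between lists was tested. Gpr158, an orphan G protein-coupled receptor of brain, was the lower one, with 14, 8 and 19 counts in WT differentiating and 2, 5 and 7 in WT proliferating libraries, against 24 and 21 in input (log2 fold change −0.98, SE 0.33, edgeR adjusted p = 0.0320).

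Over IgG, 158 windows could be tested, of which 6 were higher and 0 lower, in a table where 5.13% of all genes were called higher and 0.205% lower. The median log2 fold change was 0.84 in long genes and 0.67 over all genes, and with TMM 0.21 and 0.05. Windows entered by their mean over WT and IgG libraries, and IgG windows had medians of only 2 and 3 counts. Tested windows thus passed mostly through their WT counts, which favours a positive median. Summed over all 290 windows, WT was 1.33 times IgG in differentiating and 1.55 times in proliferating libraries. The 6 windows called higher were Lsamp, Fbxl17, Cadps, Lpp, Ptprm and Pard3b, named after their values were seen beyond the 5 with the smallest p. Lsamp, an IgLON adhesion protein, rested on IgG counts of 1 and 0. Cadps, a regulator of dense-core vesicle release, had 40, 21 and 45 counts in WT differentiating and 21, 14 and 34 in WT proliferating libraries, against 0 and 3 in IgG. Its log2 fold change over IgG was 2.54 (SE 0.70, edgeR adjusted p = 0.0173). With TMM or DESeq2 0 were called, and without the proliferating IgG library 0 were called. The count was 3 without WT proliferating replicate 3 and 10 without WT differentiating replicate 2.

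In long genes, how far apart the stages lay in each promoter class depended on the control. In the 80 long genes with such a promoter the summed window signal was 1.38, 1.05 and 1.18 times input in WT differentiating and 1.73, 2.07 and 1.95 times in WT proliferating libraries. In the 53 CpG-poor ones it was 1.19, 1.07 and 1.09 in differentiating and 1.36, 1.21 and 1.35 in proliferating libraries. Over input the ranges of the stages did not overlap in either class, and the gap was wider in the CpG-rich one. IgG itself, over input, was at 0.768 and 1.09 in CpG-rich and at 1.07 and 0.868 in CpG-poor windows for the differentiating and proliferating stage. Set against IgG, CpG-rich windows were at 1.36 to 1.798 in differentiating and 1.60 to 1.903 in proliferating WT libraries, which overlap. CpG-poor windows were at 1.00 to 1.12 in differentiating and 1.39 to 1.57 in proliferating WT libraries, so the wider gap was then in the CpG-poor class. The IgG sums rested on 185 and 252 counts in CpG-rich and 164 and 137 in CpG-poor windows. Over input, in other autosomal genes, the CpG-rich windows had 1.06 to 1.35 in differentiating and 1.81 to 2.05 in proliferating libraries, and the CpG-poor ones 0.969 to 1.06 and 1.10 to 1.22. Over IgG, the CpG-rich windows of those genes had 1.26 to 1.61 in differentiating and 1.76 to 1.99 in proliferating libraries. Their CpG-poor windows had 1.14 to 1.25 at both stages. In other autosomal genes the wider gap was thus in the CpG-rich class over either control. The classes were set after the data were seen, and their difference was not tested.

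**Figure D4:**
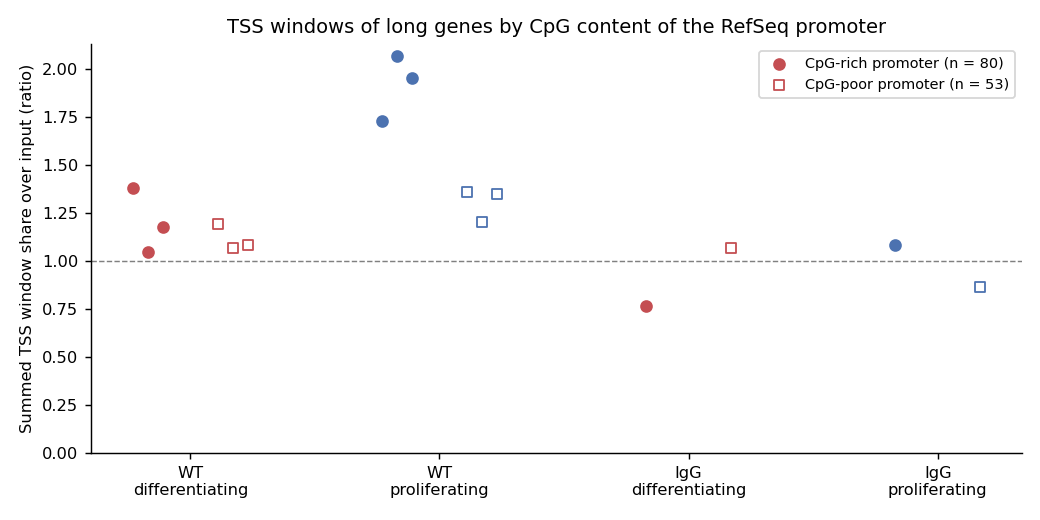
Summed TSS window signal of long genes relative to the input of the stage (y axis, ratio), by group (x axis), for 80 CpG-rich (filled circles) and 53 CpG-poor promoters (open squares). Each point is 1 library; CpG-rich windows lie at 1.05 to 1.38 in WT differentiating and 1.73 to 2.07 in WT proliferating libraries, and the IgG points differ between the stages in both classes.

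Between the stages, no long gene was called outside its TSS window. Of 290 genes, 0 were higher and 0 lower in differentiating cells by edgeR and 0 by DESeq2. By edgeR, 0.023% of all genes were called higher and 0.00919% lower. An unadjusted edgeR p under 0.05 was found in 14 of 290 long genes and in 2359 of 21752 genes tested. The median log2 fold change, differentiating over proliferating, was 0.00 in long genes and 0.00 over all genes.

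The 5 genes with the smallest p did not pass. Nfia, a transcription factor of the glial lineage, had 1.111, 1.085 and 1.118 CPM per kb in differentiating and 1.204, 1.285 and 1.245 in proliferating WT libraries. The groups did not overlap, and the log2 fold change was −0.19 (SE 0.06, edgeR adjusted p = 0.366). Tmem132d, with 0.97, 0.95 and 0.93 in differentiating and 0.90, 0.77 and 0.77 in proliferating libraries, was at 0.21 (SE 0.05, edgeR adjusted p = 0.319). Maml2, a Notch coactivator, was at −0.18, Nell1 at 0.15 and Dlgap2, a postsynaptic scaffold, at −0.16. In the neurexin and contactin list 9 of 9 values were positive, from 0.03 to 0.16, and none passed. Erbb4, a neuregulin receptor, was at 0.19 and Npas3, a transcription factor of neural progenitors, at −0.12, and neither passed.

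In the TSS window 243 long genes were tested between stages, of which 5 were higher and 8 lower in differentiating cells, in a table where 2.03% of all genes were called higher and 4.57% lower. DESeq2 called 0 and 0 long genes, against 7 and 89 over all genes. In edgeR, 62 of 243 long genes and 4441 of 19477 genes tested had an unadjusted p under 0.05. The edgeR counts are relative to TMM, which sets the typical window level. Scaled by gene body totals the median over all genes was −0.47 and that of long genes −0.51. By that scaling 1 of 243 long genes was higher and 63 lower, against 64 and 4996 of 19477 genes tested. Leaving out 1 library gave 0 to 3 higher and 2 to 9 lower, with 0 and 2 without proliferating replicate 3 and 1 and 2 without differentiating replicate 3.

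Lpp was the gene named by the rule. Its CPM per kb, given above, were 1.70 to 2.63 in differentiating and 3.96 to 7.26 in proliferating windows. The groups did not overlap, and the log2 fold change was −1.098 (SE 0.27, edgeR adjusted p = 0.00446). DESeq2 gave an adjusted p of 0.0710, and the call was lost without proliferating replicate 3 (edgeR adjusted p = 0.0839) or differentiating replicate 3 (edgeR adjusted p = 0.0694).

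The other called windows had means under 30 counts and are named after their values were seen. Lower in differentiating cells were Tbc1d5, a Rab GTPase regulator, the attractin-like protein Atrnl1, the receptor tyrosine phosphatases Ptprg and Ptprm, Mdga2, a synaptic adhesion inhibitor, Pard3, a polarity scaffold, and a gene with a clone name. Tbc1d5 had 1.59, 1.02 and 1.93 CPM per kb in differentiating and 5.28, 6.01 and 3.55 in proliferating windows (log2 fold change −1.0997, edgeR adjusted p = 0.00639). Mdga2 had 1.91, 0.94 and 2.11 in differentiating and 3.96, 5.26 and 4.60 in proliferating windows (log2 fold change −0.94, edgeR adjusted p = 0.0218). The input was at 1.18 in the differentiating and 0.59 in the proliferating stage for Tbc1d5, and at 1.497 and 1.43 for Mdga2. In both genes the differentiating windows lay around their input, and all 3 proliferating windows lay above theirs.

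Higher in differentiating cells were Syt1, Foxp1, Thsd4, Pkhd1 and Opcml. Syt1, the calcium sensor of synaptic vesicles, had 18, 14 and 25 counts in differentiating and 3, 2 and 2 in proliferating windows, against 15 and 17 in input. In CPM per kb these were 1.43, 1.10 and 1.46 in differentiating and 0.66, 0.50 and 0.26 in proliferating libraries, against 1.18 and 1.43 in input. The log2 fold change was 2.08 (SE 0.51, edgeR adjusted p = 0.00496). The differentiating windows were at input level and the proliferating ones below it. Foxp1, a transcription factor of neuron subtypes, had 16, 16 and 21 counts in differentiating and 5, 1 and 4 in proliferating libraries, against 27 and 15 in input (log2 fold change 1.49, edgeR adjusted p = 0.0362). All 3 differentiating Foxp1 windows lay below their input. Opcml, an IgLON adhesion protein, was at 1.10 (edgeR adjusted p = 0.0456).

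**Figure D5:**
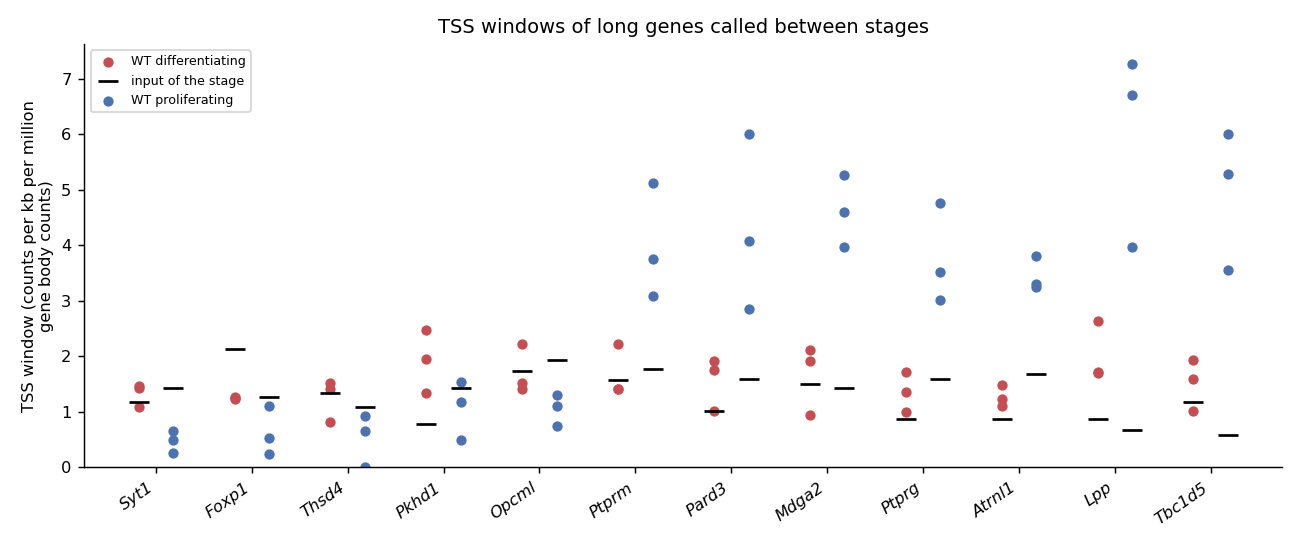
TSS window signal (y axis, CPM per kb) of 12 of the 13 long genes called between stages, leaving out a clone name. Points are WT libraries, red differentiating and blue proliferating, and black bars the input of the stage; from Ptprm to Tbc1d5 the proliferating points lie above input, and from Syt1 to Thsd4 they lie below.

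At the length threshold the values did not jump. The 3 genes just inside it were Fam189a1 (400433 bases), Dock4 and Sgcd, with 0.957 to 1.097 CPM per kb outside the TSS window in WT differentiating and 0.97 to 1.14 in WT proliferating libraries. The 3 just outside it were Slc24a3 (399343 bases), Ryr3 and Dlgap1, with 0.98 to 1.09 in differentiating and 1.01 to 1.11 in proliferating libraries.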

How the data were processed

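Per the labels, chromatin was immunoprecipitated with an H3K14ac antibody and sequenced on an Illumina NextSeq. Per the submitters' processing notes, bcl2fastq and featureCounts were used with mm10; the aligner, the annotation and the handling of reads that match several places are not given in the sources used here. What the authors deposited are whole-number counts for each gene in TSS windows of 1 kb and over gene bodies, not normalized by the authors, and all 24 per-sample files equalled the columns of the 2 tables. Signal outside the TSS window is the gene body count minus the window count.

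Gene IDs were matched to RefSeq (GRCm38.p6; 25204 of 27095) for symbols and chromosomes. Of 306 genes of at least 400 kb, 13 on X and 3 without a chromosome were not used. Among the 290, the RefSeq span was within 2% of the table's length for 248 and over 1.2 times it for 19, so the window of some genes may not be at their RefSeq start.

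Tests used edgeR 4.0.16 in R 4.3.3 (quasi-likelihood, two-sided, prior count 0.125, mean count of 10 or more, Benjamini-Hochberg over all genes tested). Differentiating and proliferating WT libraries (6 in all) were compared with TMM. For input and for IgG, the 6 WT and 2 control libraries were fitted with stage as a covariate and library sizes set to gene body totals. The 2 controls come from different stages. DESeq2 1.42.0 was an alternative. Fits were tested on simulated data. Densities are counts per kb for every 1000000 gene body counts (CPM per kb). Hbo1 null libraries entered no fit, because of their depth; their sums and the values of 3 single genes are given. Sums used 1 library per control and stage, and intervals cover counting error only.

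The genes, the functional lists and the tests were chosen with earlier results of these data known. Genes were named if called at 0.05, averaging 30 counts or more, with groups that did not overlap (the 10 largest each way between stages, 5 each way against controls); with no such gene, the smallest 5 p-values decided. The longest genes and those next to the threshold were added. In the comparison with input, no tested window with a matching promoter had a mean of 30 counts, so the sequences were chosen after the values were seen. A promoter was used where its start lay within 100 bases of the one implied by the table's length; with 500 bases, tried first, 147 long genes matched and 58.5% were CpG-rich, against 46.3% of 14718 others. Sums by promoter class against IgG were added after seeing the data.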

Additional observations from a re-analysis of the deposited data

Results flagged for a closer look

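At 3 of the 290 long genes the Hbo1 null libraries, which entered no test between groups, stood above all 10 other libraries outside the TSS window at both stages, with the lower end of the 95% exact Poisson interval above the highest other library. Other genes were not searched in this way, so 3 of 290 cannot be set against a share over all genes. Gphn, the scaffold of inhibitory synapses, had 334 counts or 2.28 CPM per kb (2.04 to 2.54) in the differentiating and 125 counts or 4.27 (3.55 to 5.09) in the proliferating null library, against 0.66 to 1.18 in the other libraries. That was 3.24 times input in the differentiating and 6.34 times in the proliferating stage. Xkr4, a phospholipid scramblase family member, had 231 and 73 counts, or 1.58 and 2.50 CPM per kb, against 0.73 to 1.15 elsewhere, which was 1.84 and 3.43 times input. Anks1b, a postsynaptic protein, had 516 and 149 counts, or 1.47 and 2.12 CPM per kb, against 0.86 to 1.01 elsewhere, which was 1.64 and 2.46 times input. At each of the 3 genes the ratio was larger in the proliferating library, which had the lowest total of the series. Each null value is 1 library, and the position of the counts within the genes was not analysed here.

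At 2 named genes every WT library lay on one side of IgG in one stage and on the other side in the other. Only named genes were searched, so no share over all genes can be given. Outside the TSS window Tmem132d had the smallest p between stages, and Cntnap5a ranked 2 by that p in its functional list. A stage difference at these genes is therefore drawn partly from the values that named them. Tmem132d outside the TSS window was above IgG in differentiating cells (0.12 on the log2 scale) and below it in proliferating cells (−0.27), a difference of 0.39. Cntnap5a was below IgG in differentiating cells (−0.05) and above it in proliferating cells (0.13), a difference of −0.19 (−0.185). Each stage has 1 IgG library, and these differences were not tested.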

How the results depend on the processing

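Between stages, no long gene was called outside the TSS window in any of the alternatives run, leaving out each library included. In the TSS window, 5 higher and 8 lower became 0 and 0 with DESeq2, 1 and 63 with gene body totals, 1 and 64 with the scaling of the rest of the gene, and 2 and 13 with no filter on low counts; leaving out 1 library gave 0 to 3 higher and 2 to 9 lower, the fewest without proliferating replicate 3 (0 and 2) or differentiating replicate 3 (1 and 2), and 1 and 4 without differentiating replicate 2. Over all 19477 genes tested, gene body totals gave 64 higher and 4996 lower, and the scaling of the rest of the gene gave 60 and 5160. With a replicate block, 2 long genes were higher and 4 lower. For pairing, each library's log2 values outside the TSS window, as deviations from its stage mean, were correlated over 13113 genes of the whole table. Between libraries with the same number these deviations correlated at 0.27 and 0.28 for numbers 1 and 2 and at −0.06 for number 3. The numbers were therefore not taken to pair the libraries. Proliferating replicate 3 correlated best with differentiating replicate 2.

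Against input outside the TSS window, 163 higher and 6 lower became 223 and 0 with TMM and 235 and 0 with DESeq2; leaving out 1 library gave 57 to 173 higher and 0 to 41 lower, with 57 and 0 without the proliferating input, 120 and 0 without the differentiating input, and 41 lower without proliferating replicate 1. Frmd4a turned from −0.13 to 0.02 (0.019) with TMM and 0.06 (0.056) with DESeq2. In the TSS window 33 higher and 1 lower became 17 and 3 with TMM and 5 and 0 with DESeq2; leaving out 1 library gave 0 to 61 higher and 0 to 2 lower, the extremes being the proliferating and the differentiating input, with 18 higher without proliferating replicate 3. Against IgG, 3 higher outside the TSS window became 10 with DESeq2 and 1 to 4 without 1 library, with 1 lacking the proliferating IgG. In the TSS window 6 became 0 with TMM or DESeq2 and 0 to 10 without 1 library, with 0 lacking the proliferating IgG, 3 lacking proliferating replicate 3 and 10 lacking differentiating replicate 2. The causes were not tested. Counts in TSS windows were low, with medians of 2 and 3 in IgG and 6 to 20 in WT libraries, and each control was 1 library per stage.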
